A study of Mus musculus with 13 samples.

Results

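A set of 9 imprinted genes of fetal growth was followed by single-cell RNA sequencing through mouse heart development: Igf2, H19, Meg3, Dlk1, Mest, Peg3, Cdkn1c, Grb10 and Plagl1. They were chosen by name, and all 9 were found among the 27998 genes of each count matrix. The tissue came from wild-type C57Bl/6J mice, an inbred strain, and the labels name no agent given to them. At E8.5 and E10.5 whole embryos without head and limbs were digested, and from E12.5 to E16.5 and 3 days after birth (P3) hearts were. The 13 sample records gave 10 matrices, with 2 libraries each at E10.5, E12.5, E14.5 and E16.5. The first replicate of E8.5 is not part of what was analysed, replicate 1 of E16.5 joins the records of 2 samples, and P3 is 1 pooled matrix whose barcodes carry the suffixes 1 and 2. The P3 suffixes were used for description only, and E8.5 and P3 entered no test. The design text calls the samples of a stage biological replicates and does not say how many animals or litters they came from, so p-values measure the spread between these libraries only. The sample titles give the samples of a stage the same replicate number, and replicates 1 and 2 here follow the names in brackets in those titles. A level is given as UMIs (unique molecular identifiers, 1 for each captured RNA molecule) of a gene per 10000 UMIs of all genes, summed over the barcodes of a library or class. In all, 67411 barcodes with at least 2000 UMIs and at least 1% mitochondrial UMIs were kept, 3984 to 12132 per library.

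Imprinted genes are transcribed mainly from the copy inherited from one parent, which methylation laid down in the egg or the sperm decides. In most mouse tissues Igf2, Dlk1, Mest, Peg3 and Plagl1 are expressed from the paternal copy, while H19, Meg3, Cdkn1c and Grb10 are expressed from the maternal copy. Igf2 is a secreted growth factor and H19 is the long noncoding RNA of the same locus. Cdkn1c inhibits cyclin-dependent kinases, Grb10 is an adaptor that binds activated insulin and IGF receptors, and Dlk1 is a membrane protein of the Notch ligand type that shares a locus with the noncoding RNA Meg3. Mest encodes a protein of the hydrolase fold, and Peg3 and Plagl1 encode zinc finger proteins. UMI counts of an inbred strain do not tell the parental copies apart, so every level below is the sum of both. In the mm10 annotation H19 (chr7:142575529-142578143) and Igf2 (chr7:142650766-142666816) lie 72.6 kb apart on the minus strand, with Cdkn1c (chr7:143458339-143461050) on the same chromosome and strand. Dlk1 (chr12:109452823-109463336) and Meg3 (chr12:109541001-109571726) lie 77.7 kb apart on the plus strand. Mest, Peg3, Plagl1 and Grb10 lie at chr6:30723547-30748465, chr7:6703892-6730431, chr10:13060504-13131694 and chr11:11930508-12038683.

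H19, Igf2, Mest and Meg3 are also host genes of microRNAs, and their 9 mature products are shown because they are part of what these loci make. The libraries capture polyadenylated RNA, so only the host RNA was counted. The sequences are RefSeq's on GRCm38.p6, read 5′ to 3′, with the seed (bases 2 to 8) in capitals. Those of H19 and Meg3 lie in exons and those of Igf2 and Mest in introns.
mmu-miR-675-5p (H19, chr7:142577112-142577133, minus): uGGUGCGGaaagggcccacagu
mmu-miR-675-3p (H19, chr7:142577078-142577099, minus): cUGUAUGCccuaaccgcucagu
mmu-miR-483-5p (Igf2, chr7:142654968-142654989, minus): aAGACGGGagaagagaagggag
mmu-miR-483-3p (Igf2, chr7:142654932-142654952, minus): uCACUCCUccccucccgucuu
mmu-miR-335-5p (Mest, chr6:30741314-30741336, plus): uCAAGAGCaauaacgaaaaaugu
mmu-miR-335-3p (Mest, chr6:30741354-30741375, plus): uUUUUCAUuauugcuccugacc
mmu-miR-1906 (Meg3, chr12:109544588-109544609, plus): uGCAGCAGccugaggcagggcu
mmu-miR-770-5p (Meg3, chr12:109563710-109563731, plus): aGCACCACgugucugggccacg
mmu-miR-770-3p (Meg3, chr12:109563744-109563765, plus): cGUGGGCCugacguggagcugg
No seed is shared between any of these sequences.

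Barcodes were put into 4 classes by 1 gene each, Tnnt2 (cardiac troponin T) and Col1a1 (a collagen chain) at 10 or more UMIs per 10000, Cdh5 (VE-cadherin) and Upk3b (an epicardial and mesothelial surface protein) at 1 or more per 10000 with at least 2 UMIs. A barcode that passed several gates, 3 to 170 per library, was left out of all classes. The Tnnt2 class held 134 barcodes in the E8.5 library, 149 and 153 in those of E10.5, and 1764 to 7061 in each heart library. The Cdh5 class held 143 to 862 and the Col1a1 class 12 to 1430 per library, the Col1a1 class with only 28 and 104 at E12.5. The Upk3b class held 21 to 226 up to E12.5, then 34 and 28 (E14.5), 8 and 0 (E16.5) and 2 (P3). The markers listed for each type were compared between classes over the heart libraries of E12.5 to E16.5 only. Here and in the marker sums below, a class with fewer than 10 barcodes in a library gave no value. The Upk3b class was thus checked at E12.5 and E14.5 and not at E16.5. Highest in the class named for them were 10 of 10 of cardiomyocytes, 8 of 8 of endothelium, 7 of 8 of fibroblasts and 7 of 7 of epicardium. Each list holds the gate gene itself, which the rule makes highest. Classes of the embryos and of P3 were not checked in this way. In the Tnnt2 class of the hearts, markers of fibroblasts summed to 0.765 to 0.998, those of endothelium to 0.159 to 0.405, those of smooth muscle or pericytes to 10.1 to 14.3 and those of erythroid cells to 29.2 to 63.9 UMIs per 10000. Cardiomyocyte markers summed to 6.58 to 10.6 in the Cdh5, 6.79 to 18.98 in the Col1a1 and 14.52 to 33.2 in the Upk3b class of the hearts. Erythroid markers reached 532 in the Upk3b class, whose own markers summed to 16.7 to 17.1, and their part in the levels was not tested. The total of a library was 67141166 to 259041468 UMIs, and pairs of libraries shared 14 to 181 kept barcodes.

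The 9 genes did not follow 1 course through development, and the same gene took different courses in different classes. From E12.5 to E16.5, both of hearts, the Tnnt2 class lost most of its Cdkn1c, Mest and Meg3, the Cdh5 class lost Cdkn1c and Meg3 while Igf2 and Peg3 rose, and the Col1a1 class gained Dlk1, Mest, Plagl1, Meg3 and Cdkn1c. Counts were summed per library and class and tested with edgeR's quasi-likelihood test, and a gene is called where the Benjamini-Hochberg adjusted p over all genes tested is below 0.05. Of the 9 genes, 1 rose and 5 fell in the Tnnt2 class, where 58.6% of all 14597 genes tested were called, 29.7% as higher and 28.9% as lower. In the Cdh5 class 5 rose and 2 fell, beside 43.3% of 12382 genes, 20.8% higher and 22.5% lower. In the Col1a1 class 5 rose and none fell, beside 18.6% of 9383 genes, 10.48% higher and 8.13% lower. Its E12.5 sums held 28 and 104 barcodes. With barcodes of several gates kept in every class they passed, Cdkn1c (-0.63) and Plagl1 (-0.39) became called falls there, and Peg3 was at -0.34. All kept barcodes together gave 2 higher and 6 lower, beside 62.9% of 16863 genes, 31.6% higher and 31.3% lower. That sum mixes classes whose shares differ between stages. The median log2 fold change of the 9 genes was -0.50 in the Tnnt2 class, 0.23 in the Cdh5 class and 0.83 in the Col1a1 class, while that of all genes tested was between -0.01 and 0.01.

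**Figure D1:**
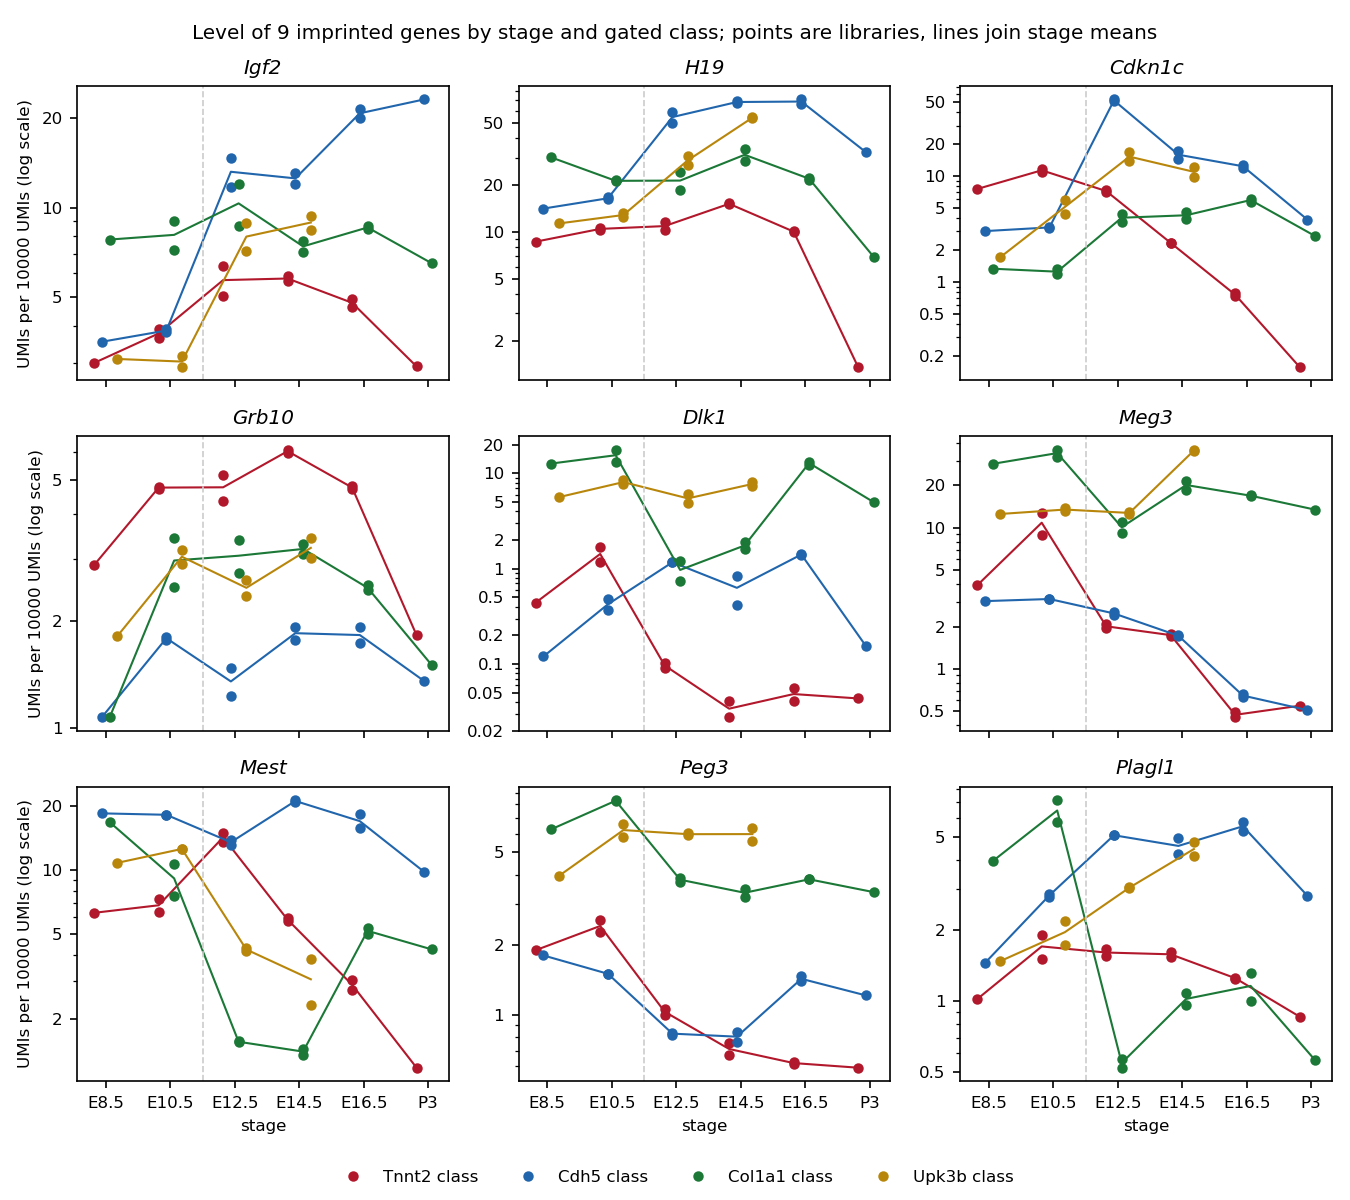
Level of each of the 9 genes (UMIs per 10000 UMIs, log axis) by stage in the Tnnt2, Cdh5, Col1a1 and Upk3b classes; each point is 1 library and the lines join stage means. Cdkn1c in the Tnnt2 class is at 11.7 and 10.999 at E10.5 and at 0.156 at P3, and Igf2 in the Cdh5 class is at 3.53 at E8.5 and at 23.1 at P3. Both spans cross the change from embryos to dissected hearts, which cannot be told apart from stage. The E12.5 and E14.5 ranges of Igf2 overlap, and its P3 suffixes lie on both sides of E16.5.

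Whether the change from E12.5 to E16.5 differed between classes was tested as an interaction over the Tnnt2, Cdh5 and Col1a1 classes, with the library as a block. Of the 9 genes 7 differed, beside 43.4% of 13541 genes tested. H19 (edgeR's quasi-likelihood F test, Benjamini-Hochberg adjusted p = 0.153) and Grb10 (adjusted p = 0.0531, same test) missed the threshold. The Cdh5 class changed differently from the Tnnt2 class for 5 genes, all more upward, beside 18.9% of all genes in that direction. The Col1a1 class changed more upward than the Tnnt2 class for 6 genes, beside 12.4%, and less for none, beside 6.91%. Between the Col1a1 and the Cdh5 class 8 differed, beside 15.1%, 5 more upward in the Col1a1 class, beside 10.2%, and 3 less, beside 4.9%.

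**Figure D2:**
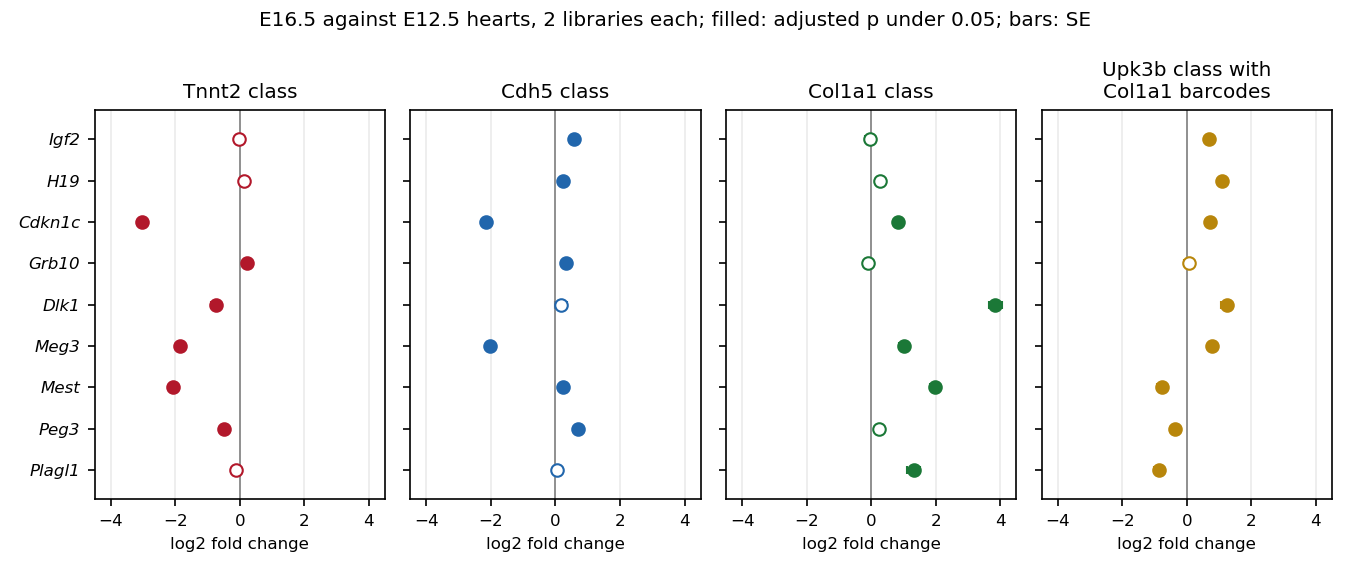
Log2 fold change from E12.5 to E16.5 of the 9 genes, with standard errors, in the Tnnt2, Cdh5 and Col1a1 classes and, in the last panel, in an epicardial class in which barcodes that also passed the Col1a1 gate were kept. Cdkn1c is at -3.03 in the Tnnt2 class and 0.83 in the Col1a1 class, and Dlk1 is at -0.74 and 3.85.

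Igf2, the growth factor of the set, did not change from E12.5 to E16.5 past the threshold in cardiomyocytes and rose in the Cdh5 class taken as a whole. Within that class, Igf2 at E16.5 and P3 was higher in barcodes with Npr3 than in those without, by a division given under other observations and not tested. Igf2 in the Tnnt2 class was 2.997 (E8.5), 3.89 and 3.64 (E10.5), 5.03 and 6.36 (E12.5), 5.65 and 5.88 (E14.5), 4.63 and 4.93 (E16.5) and 2.92 (P3). The E14.5 and E12.5 ranges overlap, E16.5 lies below both, and the E8.5 and P3 values are the lowest. From E12.5 to E16.5 the fitted change was -0.02, SE 0.086 in log2 and was not called. Igf2 in the Cdh5 class was 3.53 (E8.5), 3.91 and 3.79 (E10.5), 11.7 and 14.7 (E12.5), 13.1 and 11.998 (E14.5), 19.997 and 21.5 (E16.5) and 23.1 (P3). Here the heart libraries all lie above those of embryos, and E16.5 lies above E12.5 and E14.5, which overlap. Igf2 rose from E12.5 to E16.5 in this class by 0.56 in log2 (SE 0.088, edgeR's quasi-likelihood test, Benjamini-Hochberg adjusted p = 7.97e-05), and its change differed from that of the Tnnt2 class by 0.61. Igf2 in the Col1a1 class stayed between 6.48 in the P3 matrix and 11.99 in 1 E12.5 library, with no call from E12.5 to E16.5 (-0.04, SE 0.15).

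H19, the noncoding partner of Igf2, was far higher in endothelium than in cardiomyocytes of the heart, and its P3 level stood further below E16.5 than that of Igf2 in the Tnnt2, Cdh5 and Col1a1 classes. H19 in the Tnnt2 class was 8.67 (E8.5), 10.3 and 10.6 (E10.5), 10.3 and 11.5 (E12.5), 15.04 and 15.3 (E14.5), 10.03 and 10.1 (E16.5) and 1.36 (P3). The E14.5 pair is highest, E10.5 and E12.5 overlap, and P3 is 7.41-fold below the E16.5 mean, against 1.64-fold for Igf2. H19 in the Cdh5 class was 14.2 (E8.5), 16.8 and 16.2 (E10.5), 50.3 and 59.2 (E12.5), 69.5 and 67.4 (E14.5), 66.7 and 71.2 (E16.5) and 32.6 (P3). The E14.5 and E16.5 ranges overlap at the top and P3 lies between the embryo and heart libraries. H19 in the Col1a1 class was 30.2 (E8.5), 21.2 and 21.4 (E10.5), 18.5 and 24.3 (E12.5), 34.1 and 28.6 (E14.5), 21.8 and 22.3 (E16.5) and 6.94 (P3), with E12.5 overlapping both E10.5 and E16.5, which are apart, and P3 lowest. From E12.5 to E16.5 only the Cdh5 class of these 3 had a call, a rise of 0.24 (SE 0.069; 0.15 without E12.5 replicate 1, 0.36 with barcodes thinned, 0.14 and not called with gates doubled), and the interaction test above does not show that the classes differed. At P3 the ratio of H19 between the suffixes was 1.49 in the Tnnt2 class and 1.33 in the Cdh5 class, with suffix 1 higher in both.

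Cdkn1c, the kinase inhibitor, had the largest fall of the 9 genes in the Tnnt2 class from E12.5 to E16.5 and a peak at E12.5 in endothelium. Cdkn1c in the Tnnt2 class was 7.54 (E8.5), 11.7 and 10.999 (E10.5), 7.42 and 6.99 (E12.5), 2.32 and 2.34 (E14.5), 0.732 and 0.778 (E16.5) and 0.156 (P3). E8.5 lies below E10.5, and from there each stage lies below the one before it with no overlap, although the step from E10.5 to E12.5 became a rise of 0.36 in log2 without barcodes low in Myl7 and Myl2. Cdkn1c fell from E12.5 to E16.5 by 3.03 on the log2 scale (SE 0.081, edgeR's quasi-likelihood test, Benjamini-Hochberg adjusted p = 1.85e-15), and P3 was a further 4.83-fold lower than the E16.5 mean. In all 6 heart libraries these levels lie below the free RNA level (barcodes of 10 to 100 UMIs), which went from 10.8 and 10.46 (E12.5) to 1.79 and 2.20 (E16.5), and its part in the fall was not tested. Cdkn1c in the Cdh5 class was 3.01 (E8.5), 3.31 and 3.22 (E10.5), 53.02 and 50.7 (E12.5), 17.2 and 14.6 (E14.5), 11.9 and 12.8 (E16.5) and 3.87 (P3). The 2 libraries of E12.5 stand above every other library of this class, and E14.5, E16.5, E10.5 and E8.5 follow in that order without overlap. P3 lies between E16.5 and E10.5 as a whole, but its suffix 2 (1.94) lies below E8.5. There Cdkn1c fell by 2.16 in log2 (SE 0.080) from E12.5 to E16.5. In the Col1a1 class, at 1.33 (E8.5), 1.31 and 1.18 (E10.5), 4.36 and 3.70 (E12.5), 4.57 and 3.94 (E14.5), 6.11 and 5.74 (E16.5) and 2.70 (P3), E12.5 and E14.5 overlap and E16.5 is highest. Its rise of 0.83 (SE 0.14) was called, but was -0.63 when barcodes that passed several gates were kept in every class they passed. The change in the Col1a1 class differed from that in the Tnnt2 class by 3.91 and from that in the Cdh5 class by 3.01.

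Grb10, the receptor adaptor, was the one gene of the set called higher in heart cardiomyocytes than in the mean of the other classes. Grb10 in the Tnnt2 class was 2.88 (E8.5), 4.73 and 4.79 (E10.5), 4.38 and 5.16 (E12.5), 6.09 and 5.97 (E14.5), 4.81 and 4.72 (E16.5) and 1.83 (P3). E10.5, E12.5 and E16.5 overlap, E14.5 lies above them and P3 is lowest. Grb10 rose by 0.23 (SE 0.077) from E12.5 to E16.5 in the fit, whose scaling (TMM) works on the whole profile, although the plain levels of the 2 stages overlap, and the call was lost without E12.5 replicate 1 (0.15) or without E16.5 replicate 1 (0.20). In the Cdh5 class Grb10 rose by 0.34 (SE 0.089), a call lost without E16.5 replicate 2 (0.29), and in the Col1a1 class it was not called (-0.09, SE 0.15). Over the heart libraries of E12.5 to E16.5 its level was 1.23 to 1.93 in the Cdh5 class and 2.44 to 3.38 in the Col1a1 class, both below the lowest cardiomyocyte value of 4.38. The mitochondrial share of the Tnnt2 class was 2.95% (E8.5), 8.27% and 8.98% (E12.5), 18.97% and 16.996% (E16.5) and 22.1% (P3), and its part in these levels was not tested except by the study's mitochondrial ceilings, under which 6 of the 9 genes were called in the Tnnt2 class as before.

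Dlk1 was close to 0 in cardiomyocytes of the heart, and in the Col1a1 class it was low at E12.5 and E14.5 and high before and after. In that class its level was 12.7 (E8.5), 13.3 and 17.7 (E10.5), 0.737 and 1.21 (E12.5), 1.91 and 1.60 (E14.5), 12.4 and 13.3 (E16.5) and 4.998 (P3). The E8.5 value lies within the E16.5 range and E10.5 lies at or above its upper end, while E12.5 and E14.5 lie far below. Dlk1 rose from E12.5 to E16.5 by 3.85 in log2 (SE 0.20, edgeR's quasi-likelihood test, Benjamini-Hochberg adjusted p = 2.90e-14), the largest change of a member between these stages in the 3 classes tested, and by 1.66 when barcodes that passed several gates were kept. At P3 the suffixes differed, with 8.32 and 3.11 UMIs per 10000, both below E16.5. Dlk1 in the Tnnt2 class was 0.441 (E8.5), 1.18 and 1.68 (E10.5), 0.0906 and 0.103 (E12.5), 0.0405 and 0.0276 (E14.5), 0.0561 and 0.0408 (E16.5) and 0.0436 (P3). These values lie below the level in barcodes of 10 to 100 UMIs of the same library, taken as free RNA, in 9 of 9 embryonic libraries. Its fall of 0.74 in log2 there was called at these levels, and the value was -0.08 and not called with barcodes of several gates kept. Dlk1 in the Cdh5 class ran from 0.1201 at E8.5 to 1.39 and 1.43 at E16.5, with its E14.5 libraries 2.01-fold apart, the widest replicate ratio of any member and class. From E12.5 to E16.5 it was not called there (0.18, SE 0.18).

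Meg3, the noncoding RNA of the Dlk1 locus, was high in the Col1a1 and Upk3b classes and fell in the Tnnt2 and Cdh5 classes of the heart. Its level in the Col1a1 class was 28.4 (E8.5), 31.9 and 35.8 (E10.5), 10.99 and 9.23 (E12.5), 21.6 and 18.6 (E14.5), 16.8 and 16.99 (E16.5) and 13.5 (P3). E12.5 is lowest there among the libraries, and the ranges of the replicated stages do not overlap. Meg3 in the Tnnt2 class was 3.92 (E8.5), 8.96 and 12.8 (E10.5), 1.94 and 2.08 (E12.5), 1.70 and 1.77 (E14.5), 0.454 and 0.493 (E16.5) and 0.549 (P3). The E10.5 libraries stand highest and E16.5 lowest, with the P3 matrix slightly above both E16.5 libraries. Meg3 in the Cdh5 class was 3.03 (E8.5), 3.14 and 3.12 (E10.5), 2.43 and 2.52 (E12.5), 1.70 and 1.73 (E14.5), 0.661 and 0.636 (E16.5) and 0.511 (P3), a fall at each step from E10.5 to E16.5, with the P3 suffixes on both sides of E16.5 (0.346 and 0.716). From E12.5 to E16.5 Meg3 rose by 1.01 (SE 0.14) in the Col1a1 class (0.40 with barcodes of several gates kept), fell by 1.85 (SE 0.12) in the Tnnt2 class and fell by 2.02 (SE 0.080) in the Cdh5 class. The E14.5 and E16.5 levels of the Tnnt2 class lie below the free RNA levels, which were 1.91 and 1.88 (E14.5) and 1.09 and 1.17 (E16.5). The difference between the Cdh5 and Tnnt2 changes was -0.14, SE 0.12, which was not called, and that between the Col1a1 and Tnnt2 changes was 2.93. Meg3 and Dlk1 both rose in the Col1a1 class, whereas in the Cdh5 class only Meg3 was called. The fall of Dlk1 in the Tnnt2 class, at levels below free RNA, was also lost with gates doubled (-0.29).

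Mest peaked at E12.5 in the Tnnt2 class taken as a whole and was low at that time in the Col1a1 class. Tnnt2 barcodes below the Myl2 division given under other observations had no lower Mest at E16.5 than at E12.5. That difference was not tested. Mest in the Tnnt2 class was 6.30 (E8.5), 7.29 and 6.37 (E10.5), 13.6 and 14.96 (E12.5), 5.76 and 5.93 (E14.5), 2.74 and 3.04 (E16.5) and 1.18 (P3). E12.5 lies above all other stages, and each later stage lies below the one before. Mest fell by 2.07 in log2 (SE 0.082, edgeR's quasi-likelihood test, Benjamini-Hochberg adjusted p = 3.47e-13) from E12.5 to E16.5, where its levels lie below the free RNA levels of 3.06 and 3.55. Mest in the Col1a1 class was 16.8 (E8.5), 10.7 and 7.56 (E10.5), 1.57 and 1.55 (E12.5), 1.35 and 1.45 (E14.5), 5.01 and 5.35 (E16.5) and 4.23 (P3). E12.5 and E14.5 are the 2 lowest stages, and the rise of 1.98 (SE 0.15) to E16.5 was called, a rise of 0.54 with barcodes of several gates kept. The scaled free RNA level there was 17.3% and 29.0% of the E12.5 values, the highest shares in this class. Mest in the Cdh5 class was 18.5 (E8.5), 18.2 and 18.2 (E10.5), 13.1 and 13.9 (E12.5), 20.9 and 21.3 (E14.5), 15.7 and 18.3 (E16.5) and 9.79 (P3), with its lowest value at P3 and a called rise of 0.23 from E12.5 to E16.5, which was lost without E16.5 replicate 2 (0.14), with barcodes of several gates kept (0.15) and with barcodes thinned (0.20). The difference in change between the Col1a1 and the Tnnt2 class was 4.12 (SE 0.14). In the annotation Mest overlaps Copg2 on the opposite strand, Igf2 overlaps Igf2os, Meg3 overlaps Gm26906 and Cdkn1c overlaps Gm44732. The paper lists reads mapped antisense to a gene apart from those mapped to the transcriptome, so strand was recorded in the alignment. Reads were not used here, and how reads of these pairs were assigned was not checked.

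Peg3 and Plagl1, both zinc finger genes, had smaller changes from E12.5 to E16.5 in cardiomyocytes than Cdkn1c, Mest or Meg3. Peg3 in the Tnnt2 class was 1.89 (E8.5), 2.26 and 2.55 (E10.5), 1.001 and 1.06 (E12.5), 0.755 and 0.668 (E14.5), 0.611 and 0.627 (E16.5) and 0.591 (P3), which falls in order from E10.5 to E16.5 with no overlap. The P3 matrix lies below E16.5, but its suffixes lie on both sides (0.536 and 0.733). Its fall of 0.50 in log2 (SE 0.076) from E12.5 to E16.5 was called. Peg3 in the Cdh5 class was 1.80 (E8.5), 1.501 and 1.49 (E10.5), 0.821 and 0.835 (E12.5), 0.845 and 0.762 (E14.5), 1.39 and 1.46 (E16.5) and 1.21 (P3). There E12.5 and E14.5 overlap as the lowest, and Peg3 rose by 0.69 (SE 0.078). Peg3 in the Col1a1 class was 6.26 (E8.5), 8.36 and 8.25 (E10.5), 3.72 and 3.88 (E12.5), 3.47 and 3.20 (E14.5), 3.82 and 3.81 (E16.5) and 3.36 (P3), with no call from E12.5 to E16.5 (0.25, SE 0.13). Plagl1 in the Cdh5 class was 1.46 (E8.5), 2.78 and 2.87 (E10.5), 5.08 and 5.07 (E12.5), 4.93 and 4.22 (E14.5), 5.31 and 5.78 (E16.5) and 2.81 (P3), with no call from E12.5 to E16.5 (0.03, SE 0.081). Plagl1 in the Col1a1 class was 3.94 (E8.5), 5.78 and 7.17 (E10.5), 0.522 and 0.571 (E12.5), 1.09 and 0.961 (E14.5), 1.32 and 1.003 (E16.5) and 0.562 (P3). The embryo libraries stand far above all heart libraries. The called rise of 1.31 (SE 0.21) from E12.5 to E16.5 rests on low E12.5 levels from 28 and 104 barcodes, and became -0.39 when barcodes of several gates were kept and 0.89, not called, when barcodes were thinned. Plagl1 in the Tnnt2 class stayed between 0.860 and 1.91 and was not called.

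The Upk3b class could not be compared between E12.5 and E16.5, since it held 8 and 0 barcodes at E16.5. Many barcodes there also passed the Col1a1 gate, and an alternative chosen after seeing the data put barcodes of both gates, and no other, in the Upk3b class, which gave 209 and 285 barcodes (E12.5), 63 and 36 (E16.5) and 20 (P3). In it 5 genes rose and 3 fell, beside 26% of 10048 genes tested, 14.4% higher and 11.6% lower. Of its barcodes, 30 and 59 at E12.5 but 55 and 36 at E16.5 also passed the Col1a1 gate. The part of this difference in the changes was not tested. H19 was 26.8 and 30.9 (E12.5), 56.9 and 66.8 (E14.5), 62.8 and 58.3 (E16.5) and 5.29 (P3). Dlk1 was 6.26 and 5.05 (E12.5) and 10.9 and 15.2 (E16.5), and Meg3 was 13.9 and 13.1 (E12.5), 44.99 and 42.5 (E14.5) and 20.9 and 24.9 (E16.5). Both stages are apart for each of these 3 genes. The rises were 1.10 for H19, 1.23 for Dlk1, 0.79 for Meg3, 0.73 for Cdkn1c and 0.70 for Igf2, and Plagl1, Mest and Peg3 fell by 0.86, 0.78 and 0.36. Grb10, at 0.06 (SE 0.14), was not called.

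The step from E10.5 to E12.5 goes from embryos without head and limbs to dissected hearts, so stage and tissue cannot be told apart in it. In the Tnnt2 class 2 genes were higher at E12.5 and 4 lower, beside 38.3% of all genes, 20.7% higher and 17.6% lower. Mest (1.16) and Igf2 (0.69) were higher, and Dlk1 (-3.78), Meg3 (-2.34), Peg3 (-1.13) and Cdkn1c (-0.55) were lower in log2 fold change. The sign of Cdkn1c depended on which E10.5 barcodes were counted as cardiomyocytes. With barcodes low in both Myl7 and Myl2 left out, which kept 132 and 137 of the E10.5 barcodes, its value was 0.36 and that of Meg3 was -1.19. In the Cdh5 class all 9 genes were called, 5 higher and 4 lower, beside 58% of all genes, 29.6% higher and 28.4% lower. Cdkn1c was 3.99 higher (SE 0.086), Igf2 1.78, H19 1.74, Dlk1 1.47 (0.66 with gates halved) and Plagl1 0.85, all in log2. Lower were Peg3 (-0.85), Mest (-0.42), Grb10 (-0.40) and Meg3 (-0.33, -0.52 with gates doubled). In the Col1a1 class Cdkn1c was higher (1.54) and 5 genes were lower, beside 12.3% of all genes, 6.71% higher and 5.57% lower. Those 5 were Dlk1 (-4.00), Plagl1 (-3.65), Mest (-2.67), Meg3 (-1.89) and Peg3 (-1.25). With barcodes of several gates kept, Dlk1 was -2.22, Plagl1 -2.03 and Mest -1.43. Cdkn1c was then 3.16, and it was 0.75 with gates halved and 1.06, not called, when barcodes were thinned.

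The classes of the heart carried different sets of these genes. Each class was set against the mean of the other 3 over 22 sums from the 6 heart libraries of E12.5 to E16.5, with the library as a block. In the Tnnt2 class Grb10 was higher (1.32, SE 0.060) and 7 genes were lower, beside 73.1% of 13122 genes tested, 39.1% higher and 33.9% lower. The lowest was Dlk1 (-5.56, SE 0.54), followed by Meg3 (-2.44) and Cdkn1c (-1.89). In the Cdh5 class 5 genes were higher and 3 lower, beside 60.1%, 29.7% higher and 30.4% lower. Mest (2.08), Cdkn1c (2.08), Plagl1 (1.56), H19 (1.53) and Igf2 (1.05) made up the higher group, and Meg3, Peg3 and Grb10 the lower one. In the Col1a1 class Meg3 (2.26), Dlk1 (2.05, 3.25 with gates doubled) and Peg3 (0.95) were higher and Plagl1, Mest and H19 lower, beside 45.8%, 22.5% higher and 23.3% lower. These values average over stages between which the classes changed differently. Dlk1 in the Col1a1 class was 0.737 and 1.21 at E12.5, against 1.17 and 1.17 in the Cdh5 and 6.04 and 4.90 in the Upk3b class. At E16.5 it was 12.4 and 13.3 in the Col1a1 class. In the Upk3b class, with no sum at E16.5, Dlk1 (3.82), Meg3 (2.43), Peg3 (2.08), Plagl1 (0.91) and H19 (0.50) were higher and none lower, beside 32.7%, 15.6% higher and 17.1% lower. The call of Plagl1 was lost with gates doubled (0.38) or with barcodes of several gates kept (0.37). The same sums serve all 4 of these comparisons.

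**Figure D3:**
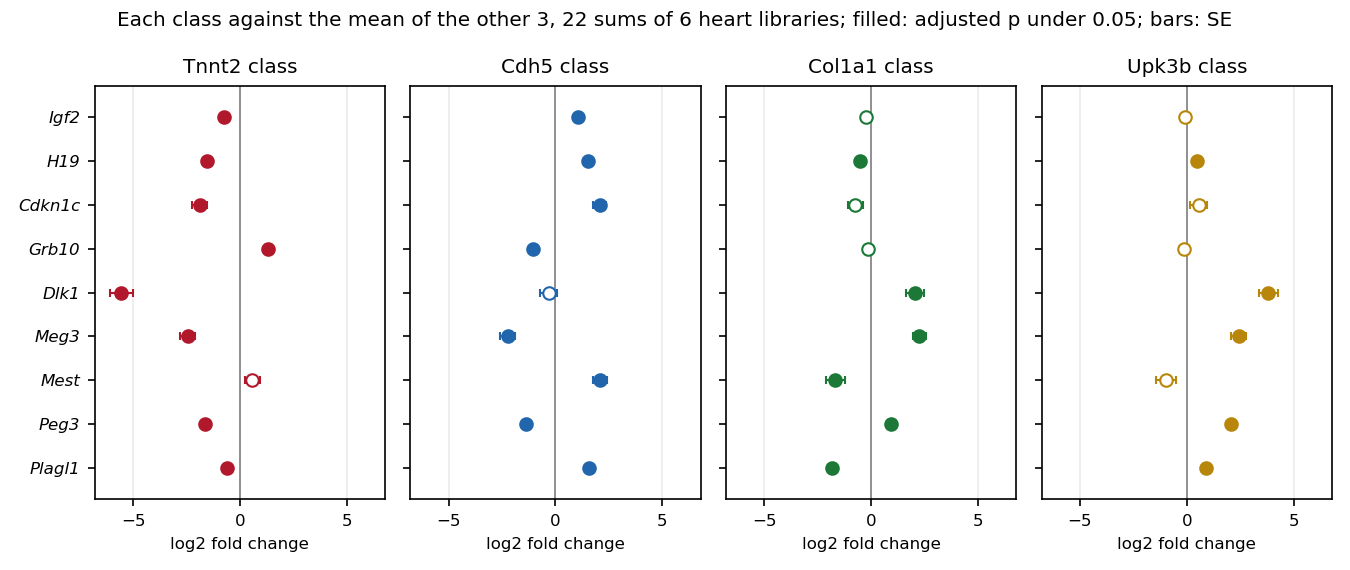
Log2 difference of each class from the mean of the other 3 for the 9 genes, with standard errors, over the 6 heart libraries from E12.5 to E16.5. Grb10 is the one gene to the right of 0 in the Tnnt2 class that was called (1.32), while Dlk1, Meg3 and Peg3 lie to the right in both the Col1a1 and the Upk3b class.

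Because Cdkn1c restrains the cell cycle, the classes were divided into barcodes with at least 2 UMIs over Mki67, Top2a, Ccnb1, Cdk1, Birc5 and Ube2c, here called cycling, and barcodes with none. The cycling barcodes were deeper, with a mean of 16912 to 27434 UMIs per library in the Tnnt2 class against 9844 to 17089 in the others. Thinning kept 4, 6, 1 and 1 of the 9 genes called in the Tnnt2, Cdh5, Col1a1 and Upk3b classes. It was applied after barcodes had been divided at full depth, so the part of depth in that division was not tested. Cycling Tnnt2 barcodes were lower in 4 genes and higher in none, beside 43.1% of 13506 genes, 18.8% higher and 24.2% lower. Meg3 (-1.22, SE 0.058) had the largest difference and Cdkn1c (-0.14, SE 0.054) the smallest of those called, with Mest (-0.52) and Peg3 (-0.26) between. The call of Cdkn1c stood in 12 of 22 other fits and in 2 of the 6 that left out 1 library (lost without either E14.5 or either E16.5 library, at -0.08 to -0.15). Mest was -0.13 and not called under the study's mitochondrial ceilings. In the Cdh5 class 7 genes were lower and Mest was higher (0.52), beside 30.7% of 10439 genes, 17.3% higher and 13.4% lower. Among the lower ones were Meg3 (-1.06), Dlk1 (-0.76), Igf2 (-0.71), Cdkn1c (-0.70), H19 (-0.68) and Plagl1 (-0.64). With barcodes thinned, Meg3 was -0.62, Cdkn1c -0.46 and Mest 0.33, and Dlk1 (-0.53) was not called. Peg3 (-0.35, edgeR's quasi-likelihood test, Benjamini-Hochberg adjusted p = 0.0499) was at the threshold, and its call stood in 12 of 22 other fits and was lost without either E14.5 or either E16.5 library (-0.25 to -0.32). In the Col1a1 class, with 5 libraries, Meg3 alone was called (-0.57), beside 15% of 8084 genes and 6.51% lower. In the Upk3b class, with only the 2 libraries of E12.5, Dlk1 (-0.27) and Meg3 (-0.26) were lower and Mest (0.38) higher, beside 8.12% of 8411 genes, 3.63% lower and 4.49% higher. With barcodes thinned only Meg3 (-0.40) was called there, and with gates doubled the values were -0.60, -0.58 and 0.86. Without the library as a block the counts became 0 in the Tnnt2, 4 in the Cdh5, 0 in the Col1a1 and 0 in the Upk3b class. Meg3 was the one gene called, and lower, in all 4 classes with the block, but its call in the Upk3b class was lost with DESeq2 (-0.26).

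**Figure D4:**
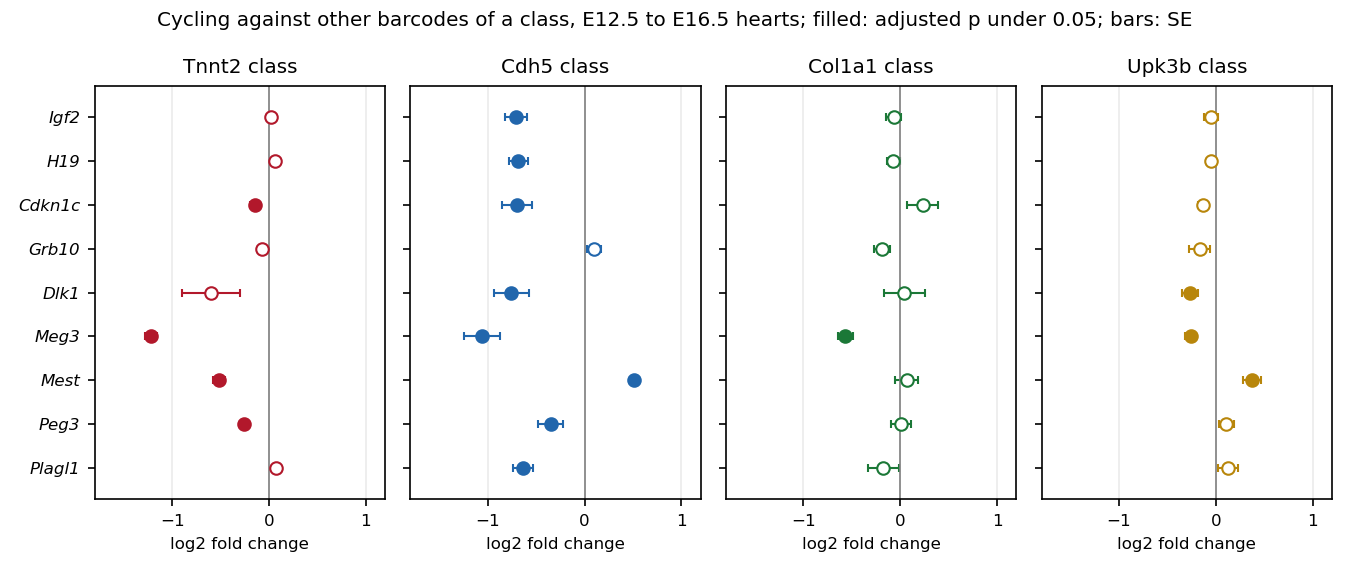
Log2 difference between cycling and other barcodes for the 9 genes, with standard errors, in the Tnnt2, Cdh5, Col1a1 and Upk3b classes of the heart libraries. The Upk3b panel rests on the 2 libraries of E12.5. Meg3 lies below 0 in every panel, from -1.22 in the Tnnt2 class to -0.26 in the Upk3b class, and Mest lies below 0 in the Tnnt2 class and above it in the Cdh5 class.

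At P3 most of the 9 genes were lower than at E16.5. The suffixes of the 1 P3 matrix were used for description only, so these are values without a test. In the Tnnt2 class 7 of the 9 genes were lower at P3 than in both E16.5 libraries, beside 49.5% of the 14031 genes with at least 30 UMIs over the 3 sums. The numbers were 8 of 9 in the Cdh5 class, beside 31.6% of 11940 genes, and 9 of 9 in the Col1a1 class, beside 20.4% of 12113 genes. Of these 27 pairs of a gene and a class, 1 lay between the E16.5 libraries and 2 lay above. Of all genes by the same floor, 41.6% (Tnnt2), 53.0% (Cdh5) and 65.0% (Col1a1) lay above both. By suffix, 22 were lower in suffix 1 and 23 in suffix 2, and 19 of 27 had the same place in both. Against the E16.5 mean, Dlk1 in the Cdh5 class was 9.10-fold lower, with 0.215 in suffix 1 and 0.0804 in suffix 2. H19 in the Tnnt2 class was 7.41-fold lower (suffixes 1.497 and 1.003), Cdkn1c in the Tnnt2 class 4.83-fold (0.178 and 0.0993) and Cdkn1c in the Cdh5 class 3.19-fold (5.42 and 1.94). The pairs above E16.5 were Meg3 in the Tnnt2 class and Igf2 in the Cdh5 class, which was 23.1 (exact 95% Poisson interval 22.9 to 23.4), with 28.1 in suffix 1 and 16.9 in suffix 2, against 19.997 and 21.5 at E16.5. The suffixes thus fall on both sides of E16.5 for this gene, and for Meg3 suffix 1 (0.579) lies above both E16.5 libraries and suffix 2 (0.472) between them. At the other end, E8.5 lay below both E10.5 libraries for 9 of 9 genes in the Tnnt2 class, beside 49% of 9585 genes by the same floor, for 7 in the Cdh5 class, beside 53.6% of 11233, and for 5 in the Col1a1 class, beside 30.4% of 2554.

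**Figure D5:**
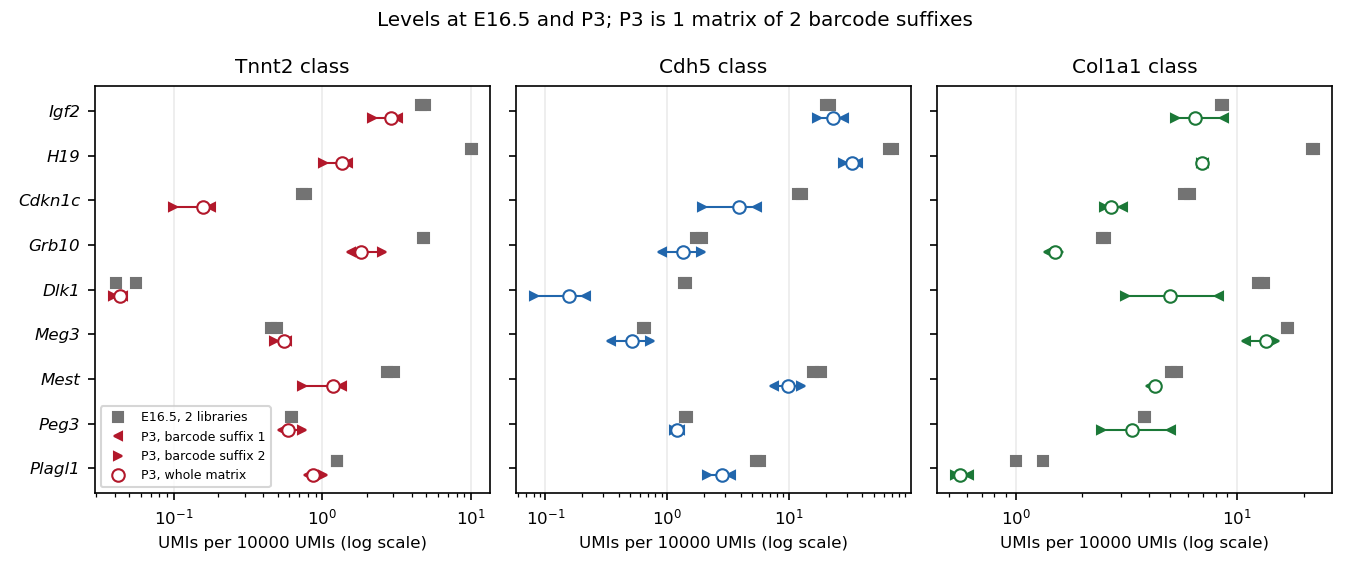
Level of each gene (UMIs per 10000 UMIs, log axis) in the 2 libraries of E16.5, in the P3 matrix and in its 2 barcode suffixes, for the Tnnt2, Cdh5 and Col1a1 classes. H19 in the Tnnt2 class moves from 10.03 and 10.1 to 1.36, while Peg3 in the same class stays near 0.591.

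The share of barcodes with a UMI was taken with each barcode thinned to 2000 UMIs. Cdkn1c was seen in 68.8% and 66.3% of Tnnt2 barcodes of E12.5, in 11.9% and 13.1% of those of E16.5 and in 2.63% of those of P3 (exact 95% interval 2.27% to 3.03%). Unthinned, these shares were 97.9%, 96.8%, 56.5%, 47.9% and 16.7%. In barcodes with at least 10% globin UMIs, assumed to lack the gene, the thinned share of Cdkn1c was 3.23% and 5.26% (E16.5) and 5.56% (P3), from 31, 19 and 18 barcodes. Each of these 3 shares is 1 barcode, too few to set a background for the P3 share of cardiomyocytes. Median depths at E16.5 were 9632 and 6971 UMIs in the globin barcodes and 19291 and 13700.5 in the Tnnt2 class. Meg3 was seen in 24.4% and 27.4% of Tnnt2 barcodes at E12.5 and in 6.98% and 8.12% at E16.5, beside 6.45% and 5.26% in globin barcodes. Dlk1 was in 7.14% and 15.4% of Col1a1 barcodes at E12.5 and in 55.2% and 56.5% at E16.5. The share of H19 in globin barcodes was 84.2% and 78.5% at E10.5 and 12.9% and 15.8% at E16.5. Intervals cover counting error only.

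Free RNA bears on low levels in these unfiltered matrices. The level of Tnnt2 in the Cdh5 class was 2.48% to 3.68% of its level in barcodes of 10 to 100 UMIs, and 2.48% to 4.63% in the Col1a1 class. With that share as a scale, free RNA came to 0.393% to 6.24% of the members' levels in the Cdh5 class and 0.141% to 29.0% in the Col1a1 class. Barcodes that passed the Tnnt2 gate were left out of both classes, which limits this scale by rule, so the shares can be too low. Cardiomyocyte levels of Cdkn1c and H19 lay below their own free level in 6 of 9 libraries, all 6 of hearts, and those of Dlk1 in 9 of 9. Meg3 and Mest lay below it in 4 of 9 and Igf2 in 2 of 9, each with both E16.5 libraries among them, while Grb10, Peg3 and Plagl1 lay below it in none. The P3 matrix has no barcodes of that size.

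Other imprinted genes and the IGF pathway were taken from lists, and their counts stand beside the shares of all genes called of 58.6% in the Tnnt2, 43.3% in the Cdh5 and 18.6% in the Col1a1 class. By direction these shares were 29.7% higher and 28.9% lower, 20.8% and 22.5%, and 10.48% and 8.13%. In the Tnnt2 class from E12.5 to E16.5, 4 of 25 other imprinted genes tested rose and 15 fell, with a median log2 fold change of -0.41, and 2 of 14 genes of the IGF axis (ligand Igf1, receptors, binding proteins, adaptors and Igf2 mRNA-binding proteins) rose and 8 fell, with a median of -0.68. Their 5 largest called changes were falls of 2.90 for Phlda2, a growth-limiting gene, 2.55 for Nnat, 2.51 for Peg12 and 2.03 for Igfbp5, which binds IGFs, and a rise of 2.21 for Dcn, a matrix proteoglycan gene. In the Cdh5 class 4 of 24 other imprinted genes rose and 9 fell (median -0.17), and in the IGF axis 5 of 14 rose and 6 fell (median -0.36). In the Col1a1 class 7 of 22 imprinted genes rose and 3 fell (median 0.20), and 4 of 13 of the IGF axis rose and 4 fell (median 0.12). Nnat fell in all 3 classes, by 2.55, 3.08 and 2.65. Igfbp5 fell in the Tnnt2 class and rose by 0.93 in the Cdh5 and by 0.64 in the Col1a1 class.

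The genes with the most similar profiles were sought over 37 class by library sums among 7514 genes, by Pearson's r of log2(CPM + 10). The sums share libraries, depth and the same classes, so the values are descriptions. Meg3 was most like Rab34 (0.93), Slc1a3 (0.93) and Fndc4 (0.91), Peg3 most like Slc1a3 (0.92), Rab34 (0.91) and Tenm3 (0.91), and Dlk1 most like Fam195b, Tvp23b and Peg3 (0.88 each). For Igf2 these were Mxd4 (0.87), Tcaf1 (0.85) and Zcchc6 (0.84), and for Grb10 Josd2 (0.89), Epb41l3 (0.86) and Ncs1 (0.83). H19 followed the ribosomal genes Rps7 and Rps24 (0.83 each) and Rpl31 (0.82). Cdkn1c was near Rpl30, Gm1673 (0.77 each) and Nmt2 (0.76), Mest near Wdr76 (0.81), Vti1b (0.79) and Stra13 (0.77), and Plagl1 near Arhgap29, Prr13 (0.82 each) and Nrp1 (0.81). Among the members themselves Meg3 and Peg3 (0.91), Dlk1 and Peg3 (0.88), Dlk1 and Meg3 (0.83) and Igf2 and H19 (0.79) were the closest pairs.

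Promoter windows of Dlk1, Meg3 and Peg3, 250 bases before to 50 after the annotated start (RefSeq, GRCm38.p6), are shown because these 3 genes had the most similar profiles. Capitals mark GGGGCCCC, the core of the motif known for the protein of Plagl1, which reads the same on both strands.
Dlk1 (chr12:109452573-109452872, plus): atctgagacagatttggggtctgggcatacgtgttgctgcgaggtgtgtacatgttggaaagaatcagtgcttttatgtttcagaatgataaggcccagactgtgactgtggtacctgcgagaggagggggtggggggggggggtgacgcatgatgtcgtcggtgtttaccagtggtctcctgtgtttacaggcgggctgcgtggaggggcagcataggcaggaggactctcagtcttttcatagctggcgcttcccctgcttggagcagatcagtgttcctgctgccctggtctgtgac
Meg3 (chr12:109540746-109541045, plus): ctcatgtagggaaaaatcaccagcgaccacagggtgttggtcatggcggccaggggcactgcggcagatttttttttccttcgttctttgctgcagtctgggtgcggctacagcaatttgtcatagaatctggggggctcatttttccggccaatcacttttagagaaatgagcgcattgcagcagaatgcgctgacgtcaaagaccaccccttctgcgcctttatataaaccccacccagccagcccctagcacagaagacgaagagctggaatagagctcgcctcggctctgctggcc
Peg3 (chr7:6730370-6730669, minus): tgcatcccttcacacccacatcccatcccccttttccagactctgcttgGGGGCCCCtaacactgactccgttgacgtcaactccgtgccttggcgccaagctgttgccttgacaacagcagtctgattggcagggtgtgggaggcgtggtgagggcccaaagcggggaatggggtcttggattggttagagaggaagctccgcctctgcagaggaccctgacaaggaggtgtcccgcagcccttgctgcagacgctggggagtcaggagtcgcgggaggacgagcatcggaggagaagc
The letters were found once in the Peg3 window and in neither of the other two. They stand in 354 of 32851 promoter windows of the genome, 1.08%, and in no other window of the 7 members that had one. H19 and Cdkn1c had no window.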

How the data were processed

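Single-cell RNA sequencing of 13 sample records was carried out by the authors on the 10x Genomics platform, and 10 matrices were analysed. What the authors deposited are UMI counts, 1 whole number for each gene in each barcode, without normalization or a correction for free RNA. The submitters' processing notes name Cell Ranger 2.1.1 and Seurat 3.1.1, while the matrix headers name Cell Ranger 3.0.0 or 3.1.0. The labels name trypsin and v2 chemistry, and the study's methods name collagenase II and v3 chemistry. The annotation is mm10. The 9 embryonic matrices list 737280 barcodes each, and the P3 matrix holds 10964 barcodes that had already been filtered.

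Members were found by symbol. The members, the gene lists and the tests were chosen with earlier results of these data known. Barcodes with at least 2000 UMIs and 1% mitochondrial UMIs were kept and gated as described. No doublet caller was run, and barcodes that passed several gates (0.0653% to 2.26% of a library) were left out. The Cdh5 and Upk3b gates ask for 2 UMIs and so depend on depth. Counts of each class were added up within a library, sums of fewer than 10 barcodes were left out, and edgeR 4.0.16 (TMM, filterByExpr, quasi-likelihood test, R 4.3.3) was fitted over all genes with Benjamini-Hochberg adjustment. Stage fits used 8 libraries. Class fits used 22 sums in place of the 24 planned and an interaction of 2 coefficients, since no Upk3b sum at E16.5 reached 10 barcodes, and the cycling fits of the Col1a1 and Upk3b classes used 5 and 2 libraries. The scripts were tested on simulated counts. Counting intervals are exact 95% Poisson or binomial intervals (scipy 1.17.1). The rule for named genes takes all 9 members, which were counted in every comparison and named where a value is given. From the other imprinted genes (28 of 30 listed were in the matrices) and the IGF axis (14 of 14), the 5 with the largest called change in the Tnnt2 class from E12.5 to E16.5 were named, and for each member the 3 genes with the highest correlation. Another 16 settings changed gates, floors, thinning, scaling, filter, blocks or the test (DESeq2 1.42.0), 8 more left out 1 library each, and 2 were added after seeing the data. Gene positions came from GENCODE M21 (GRCm38). Reads were not used here.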

Additional observations from a re-analysis of the deposited data

Results flagged for a closer look

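The change from E12.5 to E16.5 differed between classes in 19 of 27 comparisons of a gene between a pair of classes, each by an interaction term in edgeR's quasi-likelihood fit. Values are the log2 change in the first class minus that in the second. Between the Cdh5 and the Tnnt2 class 5 of 9 genes differed, beside 37.4% of all genes tested, Mest by 2.33, Peg3 by 1.22, Dlk1 by 0.96, Cdkn1c by 0.89 and Igf2 by 0.61. Mest and Peg3 fell in the Tnnt2 class and rose in the Cdh5 class, whereas Cdkn1c fell in both. The difference for Dlk1 was 0.25 with gates doubled and 0.18 with barcodes of several gates kept, neither of them called. Between the Col1a1 and the Tnnt2 class 6 of 9 differed, beside 19.3%, Dlk1 by 4.63, Mest by 4.12, Cdkn1c by 3.91, Meg3 by 2.93, Plagl1 by 1.499 and Peg3 by 0.81. Between the Col1a1 and the Cdh5 class 8 of 9 differed, beside 15.1%, Dlk1 by 3.68, Meg3 by 3.07, Cdkn1c by 3.01, Mest by 1.78 and Plagl1 by 1.30 upward, and Igf2 by -0.55, Peg3 by -0.41 and Grb10 by -0.38 downward. These differences share sums of the same class, so they are not independent of each other. With barcodes of several gates kept, the values of the Col1a1 class against the Tnnt2 class were 1.77 for Dlk1, 2.58 for Mest, 2.29 for Cdkn1c, 0.17 for Peg3 (not called) and -0.23 for Plagl1 (not called). Those against the Cdh5 class were then 1.59 for Dlk1, 1.63 for Cdkn1c, 0.42 for Mest, -0.89 for Peg3 and -0.32 for Plagl1 (not called). The Col1a1 minus Cdh5 difference of Grb10 was called in 10 of 21 other fits, 2 of the 6 that left out 1 library among them (lost at -0.23 without E12.5 replicate 2, -0.35 without E14.5 replicate 1, -0.43 and -0.30 without replicates 1 and 2 of E16.5), and Grb10 missed the test of both coefficients together. That of Peg3 was called in 16 of 21 and in 3 of 6 (lost at -0.28 without E12.5 replicate 2, and at -0.45 and -0.35 without replicates 1 and 2 of E16.5), and was -0.15 with gates doubled. That of Igf2 was -0.36 without E12.5 replicate 2, and its call was lost with gates doubled (-0.49) and without the library block (-0.57). With barcodes thinned, Plagl1 against the Tnnt2 class (0.94) and against the Cdh5 class (0.71) was not called. Single samples far from the rest of their group were not sought, since no group has more than 2 libraries.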

How the results depend on the processing

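How many of the 9 genes were called stayed within 1.5 times of the reported count in 253 of 260 results under another setting and in 108 of 108 with 1 library left out. The exceptions among these 260 were all in cycling against other barcodes. Without the library block the count was 0 against 4 in the Tnnt2 class, 4 against 8 in the Cdh5 class, 0 against 1 in the Col1a1 class and 0 against 3 in the Upk3b class. In the Upk3b class it was 1 with thinned barcodes and 0 with DESeq2, and in the Col1a1 class it was 2 with gates halved. For the differences between pairs of classes, the count stayed within 1.5 times in 43 of 45 results under another setting. The other 2 were lower, both for Col1a1 minus Cdh5. There gates doubled lost the calls of Peg3, Igf2 and Grb10, and thinning those of Peg3, Plagl1 and Grb10. The causes were not tested. Of single fold changes of members, 57 of 2601 lost a call, 43 gained one and 6 changed sign while called on at least 1 side. Of values called on neither side, 74 of 1128 changed sign, left-out libraries counted, with sizes up to 0.73. With barcodes of several gates kept, the change from E12.5 to E16.5 in the Col1a1 class was -0.34 for Peg3, -0.63 for Cdkn1c and -0.39 for Plagl1. The differences for Plagl1 from the Tnnt2 and the Cdh5 class were -0.23 and -0.32, neither of them called. Cdkn1c in the Tnnt2 class from E10.5 to E12.5 was 0.36 without barcodes low in Myl7 and Myl2. The number of all genes called was 17.1% to 61.7% of the reported one with thinned barcodes in all 19 fits, 23.5% to 60.6% with gates doubled in 7 fits, 153% to 247% with gates halved in 5, 33.2% to 41.6% without the library block in 4, 25.2% to 62.1% with DESeq2 in 3, 58.6% and 59.5% with a stricter filter in 2, and 154% with barcodes of several gates kept in 1. Without E12.5 replicate 2, which holds 104 Col1a1 barcodes beside the 28 of replicate 1, it was 45.5% to 52.8% in 3 fits, and it was 55.5% without E10.5 replicate 1 and 63.2% without replicate 2 in 1 fit each, 65.5% and 66.4% without E16.5 replicate 1 in 2 and 66.5% without replicate 2 in 1. Replicate numbers were not used to pair the samples. The correlation of replicate differences between stages was -0.03 to 0.09 over 6 pairs of stages. It was 0.07 to 0.09 between heart stages and -0.03 to 0.02 between E10.5 and a heart stage. Such values do not settle whether the samples are paired. With the replicate block the counts were 6 and 6 in the Tnnt2, 7 and 9 in the Cdh5 and 5 and 6 in the Col1a1 class, as without it. E8.5 has 1 matrix, so only counting error is known there. At P3 the suffixes gave 8.32 and 3.11 for Dlk1 in the Col1a1 class and 5.42 and 1.94 for Cdkn1c in the Cdh5 class. H19 in the Col1a1 class was 7.07 and 6.87. The paper reports batch differences, judged by eye, at P3 only. Of the levels at E8.5 and P3, 457 of 648 stayed within the counting interval under other settings. Heart levels of Dlk1, Cdkn1c and H19 in the Tnnt2 class lie below the free RNA level. So do those of Meg3 there at E14.5 and E16.5, of Mest in E14.5 replicate 1 and at E16.5, and of Igf2 at E16.5. Levels of the Col1a1 class up to E12.5 rest on 12 to 104 barcodes.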

Other observations

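Within the Cdh5 class, Npr3, a natriuretic peptide receptor gene that marks endocardium, separated barcodes with different levels of several members. The division at 2 Npr3 UMIs was chosen after seeing the data and is given without a test. Cdkn1c at E12.5 was 62.6 and 60.5 UMIs per 10000 with Npr3 and 35.2 and 30.3 without, and at E16.5 it was 24.1 and 26.7 with and 3.98 and 4.63 without. The 2 sets do not overlap at either stage. H19 at E16.5 was 119 and 132 with Npr3 and 32.7 and 35.5 without. Igf2 was 36.1 and 40.4 with and 9.44 and 10.47 without at E16.5, and 59.6 with and 10.54 without at P3. Plagl1 at E16.5 was 10.003 and 11.2 with and 2.24 and 2.62 without, whereas Mest was lower with Npr3, 13.6 and 13.6 against 17.1 and 20.99. Barcodes with more UMIs pass the Npr3 division more easily, and the part of depth was not tested.

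Within the Tnnt2 class, Myl2, the ventricular myosin light chain gene, was divided at 10 UMIs per 10000 in the same way. Mest changed sides with stage, at 14.49 and 16.03 with Myl2 and 6.92 and 6.49 below the division at E12.5, and 2.38 and 2.57 with Myl2 and 7.11 and 8.24 below it at E16.5. Peg3 at E16.5 was 0.426 and 0.413 with Myl2 and 2.82 and 2.98 below the division. At P3, in 1 matrix, H19 was 1.02 with Myl2 and 3.08 below it. Cdkn1c at E10.5 was 7.997 and 6.89 with Myl2 and 13.5 and 14.7 below it. These values were not tested.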
